A study of Mus musculus with 16 samples.

Results

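The 10 genes described here, Pecam1, Cdh5, Tek, Flt1, Kdr, Ehd3, Stab1, Stab2, Lyve1 and Clec4g, are widely used markers of the endothelial cells that line the liver sinusoids. Acetylation of histone H3 at lysine 27 (H3K27ac) near them was followed in mouse liver in 12 chromatin immunoprecipitation libraries. A region of the authors' count table belonged to a gene when its midpoint lay inside the gene, or lay in no gene, within 50 kb, with that gene as the nearest protein-coding one. Of the 10 genes, 9 had a region, and they held 66 of the 52645 regions in the table. Kdr had none.

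All mice had a C57BL/6J background. The groups were NCoR1 knockout (KO) livers on PTU/LID, KO livers on chow, wild-type (WT) livers on PTU/LID and WT livers on chow, with 3 libraries each. PTU/LID is a diet low in iodine with 0.15% propylthiouracil, a drug that blocks thyroid hormone synthesis, and the series describes these mice as hypothyroid. It was given for 3 weeks from 6 weeks of age, and livers of every group were collected on day 21. NCoR1 is a corepressor that brings histone deacetylase to nuclear receptors such as those for thyroid hormone. The labels do not give the NCoR1 allele, the cells that lack it or the sex of the mice. Nor do the labels tie each library to its own animal, and p-values therefore describe the spread among libraries only. Libraries are named by their titles in the labels.

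Sinusoidal endothelial cells form a fenestrated wall between blood and hepatocytes. They clear waste macromolecules through scavenger receptors and carry endothelial junction proteins and receptors for vascular growth factors. They are a minority beside hepatocytes in whole liver. In bulk tissue, a smaller share of endothelial cells and less H3K27ac in each of them cannot be told apart. H3K27ac marks active promoters and enhancers, commonly as peaks on either side of a start site.

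Where the regions lie can be read against the start sites in RefSeq promoter windows (GRCm38.p6, 250 bases before to 50 bases after each start), which held 7 of the 10 genes. The edge of the nearest region lay 27 bp from the Stab2 start, 50 bp from that of Clec4g, 74 bp from that of Stab1, 185 bp from that of Ehd3 and 353 bp from that of Tek, in each case inside the gene. No region lay near the Flt1 start, where the nearest edge was 32375 bp away, or near Kdr. The windows of the 4 genes with a region closest to the start, and of Kdr as the gene without one, are shown here. Capitals mark the ETS factor site forms AGGAAG or CGGAAG on either strand, because ETS factors such as Erg and Fli1 are central endothelial regulators. Shorter or other forms of the site are not marked, so a window without capitals can still hold them.
Clec4g, chr8:3720602-3720901, minus strand: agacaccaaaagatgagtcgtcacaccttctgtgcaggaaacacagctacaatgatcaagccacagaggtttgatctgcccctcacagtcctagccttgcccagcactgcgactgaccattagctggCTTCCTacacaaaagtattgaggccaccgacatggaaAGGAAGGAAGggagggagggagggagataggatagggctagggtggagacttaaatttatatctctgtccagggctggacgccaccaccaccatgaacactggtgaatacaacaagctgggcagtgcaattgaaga
Ehd3, chr17:73804591-73804890, plus strand: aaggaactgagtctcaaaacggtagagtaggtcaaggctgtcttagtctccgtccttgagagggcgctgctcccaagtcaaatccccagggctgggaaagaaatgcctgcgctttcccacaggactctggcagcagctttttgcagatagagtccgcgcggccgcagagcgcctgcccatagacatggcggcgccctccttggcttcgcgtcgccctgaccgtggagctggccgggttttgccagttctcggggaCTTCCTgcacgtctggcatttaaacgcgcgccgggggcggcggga
Stab1, chr14:31168592-31168891, minus strand: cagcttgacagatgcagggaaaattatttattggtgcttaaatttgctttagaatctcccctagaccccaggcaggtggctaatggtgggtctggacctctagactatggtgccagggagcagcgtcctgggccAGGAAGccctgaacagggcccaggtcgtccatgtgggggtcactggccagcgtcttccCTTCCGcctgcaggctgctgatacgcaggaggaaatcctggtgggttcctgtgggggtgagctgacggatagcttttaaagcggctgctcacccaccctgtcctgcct
Stab2, chr10:87007893-87008192, minus strand: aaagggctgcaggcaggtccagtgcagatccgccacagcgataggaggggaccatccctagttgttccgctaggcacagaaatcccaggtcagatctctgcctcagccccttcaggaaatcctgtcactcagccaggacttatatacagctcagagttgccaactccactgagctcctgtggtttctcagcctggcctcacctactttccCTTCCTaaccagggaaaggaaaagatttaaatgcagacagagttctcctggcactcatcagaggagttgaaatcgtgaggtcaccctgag
Kdr, chr5:75978406-75978705, minus strand: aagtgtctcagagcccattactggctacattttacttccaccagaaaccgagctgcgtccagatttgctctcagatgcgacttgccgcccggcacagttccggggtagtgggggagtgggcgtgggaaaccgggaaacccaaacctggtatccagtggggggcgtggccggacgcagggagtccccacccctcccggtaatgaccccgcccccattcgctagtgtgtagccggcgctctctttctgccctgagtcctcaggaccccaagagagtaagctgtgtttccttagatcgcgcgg

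AGGAAG was found in 5 of the 7 windows of these genes, all but Tek and Kdr, and in 35.4% of the 32851 mouse windows. CGGAAG was found in 1 of 7, that of Stab1 (16.9% of all windows). The thyroid hormone receptor half-site AGGTCA was found in 2 of 7, with 2 matches at Stab2 and 1 at Ehd3 (16.3%). The short KLF site CACCC was in 6 of 7 (57.5%) and the GATA site AGATAA in 1 of 7, that of Tek (11.2%). The forkhead site TGTTTAC and the AP-1 site TGANTCA were in none of the 7 (3.65% and 7.81%). All were searched on both strands, and a match describes the letters only.

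Total counts per library ranged from 3719180 to 7416187 in KO on PTU/LID and from 5628758 to 6707960 in KO on chow. They ranged from 3095704 to 4729424 in WT on PTU/LID and from 2965505 to 5831372 in WT on chow, so KO libraries were mostly deeper. Mitochondrial (chrM) regions took over 2% of the counts in 7 libraries, and 17.2% in Chow_NCoRKO_27ac_146. Ptulid_WT_27ac_135 (3.26% on chrM), Ptulid_NCoRKO_27ac_211 (2.27%) and Chow_WT_27ac_106 (0.821%) each lay on the other side of 2% from the rest of their group. Summed over the 12 libraries, counts per gene ran from 397 at Flt1 to 12717 at Stab2, and the lowest value in 1 library was 15 counts, at Flt1. All 9 genes and all 66 regions passed the filter on low counts, as did 11460 of 11472 genes with a region and 52606 regions.

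Levels are given in CPM, counts scaled by library total and TMM factor to a common size, and summed over the regions of a gene. Per kilobase of region, Stab2 was highest with 27.3 CPM, followed by Lyve1 (24.1) and Pecam1 (23.3), and the median of all genes was 24.97 CPM per kb. Clec4g had 20.2, Stab1 18.5, Ehd3 16.8, Cdh5 16.5, Flt1 14.5 and Tek 13.4 CPM per kb. Tek lay at percentile 2.57 of all genes and Stab2 at percentile 61.3, and 8 of the 9 were below the median. Ehd3 was the most spread out, with 22 regions, 11 inside the gene and 11 outside it, while Tek, Flt1 and Stab1 rested on 2 regions each.

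The pattern common to most of the genes was a level highest in WT livers on chow, with the KO and PTU/LID livers below it. It was clearest for Pecam1 and Ehd3. At Cdh5 a KO PTU/LID library lay within the WT chow range. At Tek a KO chow library lay within that range, and the KO livers on PTU/LID were lowest. Stab2 and Lyve1, a pair of hyaluronan receptors, did not share the pattern at the gene level. Each sum was tested over all genes with edgeR's quasi-likelihood test, and a gene is said to rise or fall only at a Benjamini-Hochberg adjusted p under 0.05.

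**Figure D1:**
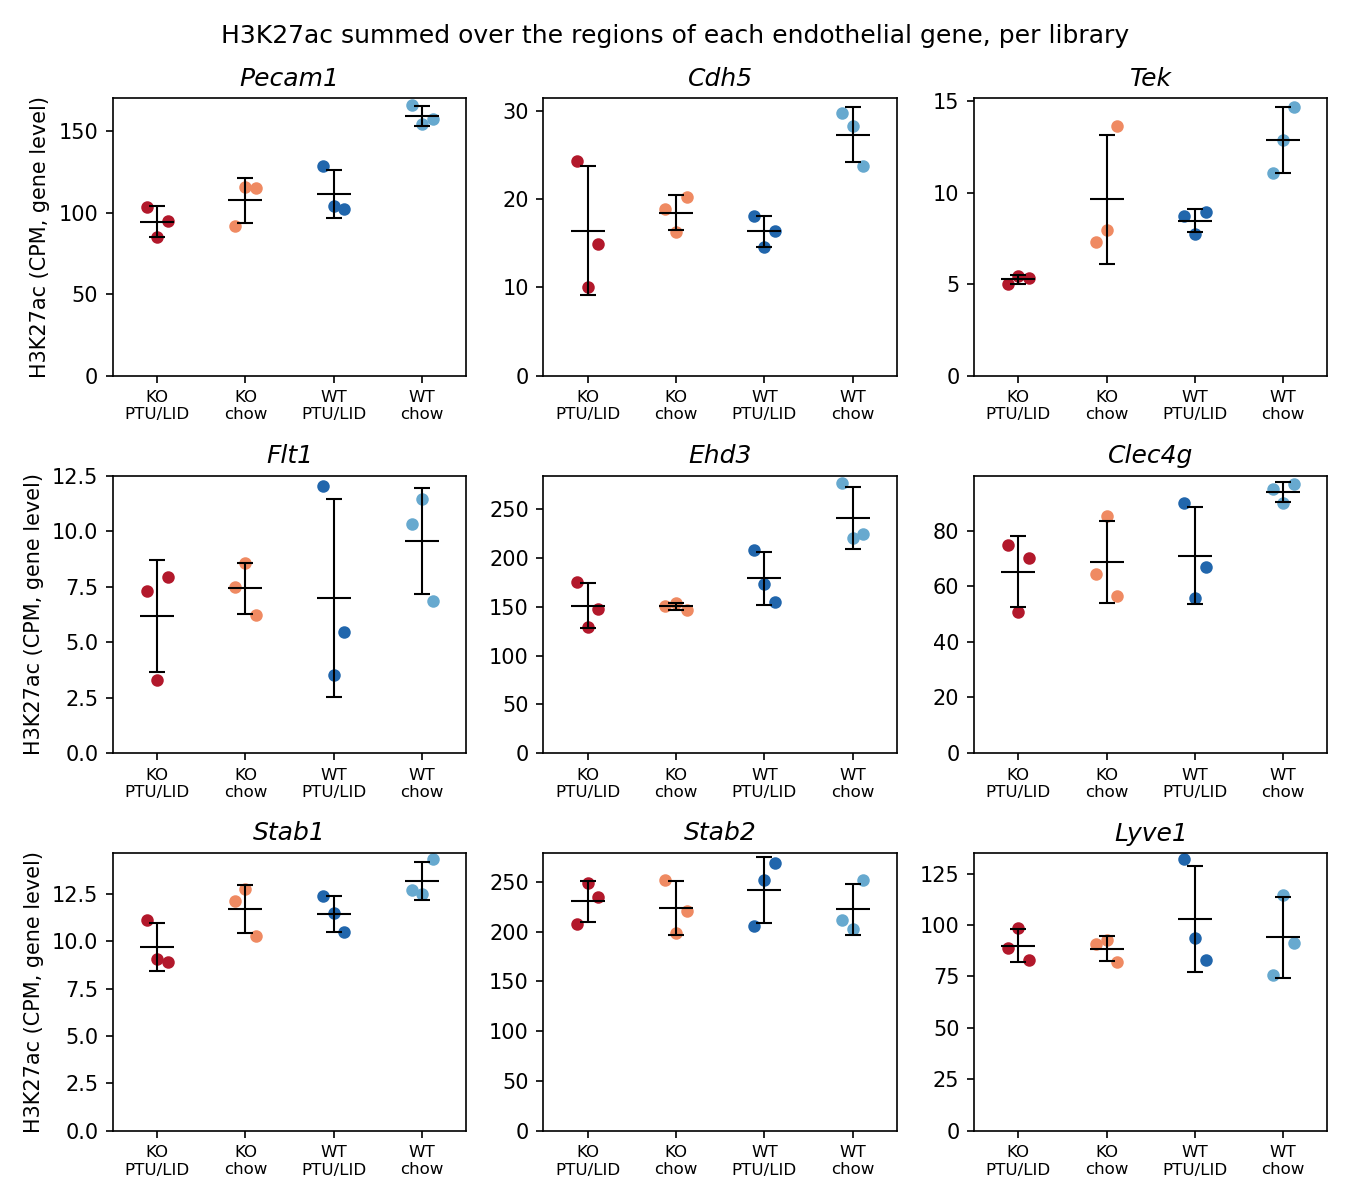
H3K27ac (CPM, summed over the regions of each gene; y axis from 0) in the 12 libraries, by group on the x axis. Points are libraries and bars give the mean and SD of 3 libraries. For Pecam1 and Ehd3 the 3 WT chow libraries (154 to 166 and 221 to 277 CPM) lie above all 9 others, and for Stab2 and Lyve1 the 4 groups overlap.

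Among the junction proteins, Pecam1 (chr11:106654213-106715281) encodes an adhesion molecule of endothelial contacts. It had 103, 84.9 and 95.1 CPM in KO livers on PTU/LID and 91.6, 116 and 115 CPM in KO livers on chow. WT livers had 128, 104 and 102 CPM on PTU/LID and 166, 154 and 157 CPM on chow. All 3 WT chow libraries were above the other 9, and the other 3 groups overlapped. Pecam1 fell in WT livers on PTU/LID (log2 fold change against chow -0.52 ± 0.12, SE; adjusted p = 0.0116) and was lower in KO than in WT livers on chow (-0.57 ± 0.12, adjusted p = 0.0104). The differences between KO and WT on PTU/LID (-0.24 ± 0.13) and between the diets in KO (-0.19 ± 0.12) did not pass (adjusted p = 0.311 and 0.419).

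The 10 Pecam1 regions moved together in WT. In the diet comparison in WT all 10 had log2 fold changes below 0, between -0.86 and -0.07, and on chow all 10 were lower in value in KO than in WT, between -0.79 and -0.36. Among all regions, 52.8% and 50.5% were below 0. A single region passed on its own in the diet comparison in WT, at the upper end of the gene (chr11:106714717-106715264). It had 10.2, 6.03 and 9.85 CPM in WT livers on PTU/LID, against 14.5, 13.6 and 18.8 CPM in WT livers on chow (-0.86 ± 0.25, adjusted p = 0.0468). The strongest region (chr11:106659787-106660816) averaged 21.3 ± 5.14 CPM in KO livers and 27.4 ± 3.14 CPM in WT livers on PTU/LID, against 29.6 ± 4.39 and 39.5 ± 7.56 CPM on chow (SD, n = 3 each). Averaged over genotypes it fell on PTU/LID (-0.50 ± 0.14, adjusted p = 0.0134). The region chr11:106657895-106658460 was lower in KO averaged over diets (-0.59 ± 0.19, adjusted p = 0.0420).

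Cdh5 (chr8:104101613-104144504) encodes VE-cadherin, the adherens junction cadherin of endothelium. It had 24.3, 9.98 and 14.9 CPM in KO on PTU/LID, 18.8, 16.3 and 20.2 CPM in KO on chow, 18.1, 14.6 and 16.4 CPM in WT on PTU/LID and 29.7, 28.3 and 23.7 CPM in WT on chow. Of the other libraries, Ptulid_NCoRKO_27ac_211 alone reached the WT chow range. Cdh5 fell in WT livers on PTU/LID (-0.75 ± 0.23, adjusted p = 0.0494). The value for KO against WT on chow was -0.57 ± 0.22 (adjusted p = 0.153), and on PTU/LID it was -0.04 ± 0.24 (adjusted p = 0.952). Of its 4 regions, 3 lie close to the lower end of the gene, and the strongest of them (chr8:104101669-104102041) averaged 6.33 ± 4.13 CPM in KO and 6.72 ± 1.42 CPM in WT on PTU/LID, against 6.65 ± 1.03 and 8.90 ± 0.598 CPM on chow. The fourth, inside the gene (chr8:104111362-104111686), fell on PTU/LID averaged over genotypes (-0.89 ± 0.28, adjusted p = 0.0348).

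Of the growth factor receptors, Tek (chr4:94739086-94874976) encodes the angiopoietin receptor. It had 4.98, 5.46 and 5.35 CPM in KO on PTU/LID and 7.28, 7.94 and 13.7 CPM in KO on chow. WT livers had 8.70, 7.75 and 8.95 CPM on PTU/LID and 11.1, 12.9 and 14.7 CPM on chow. The KO PTU/LID libraries were below all 9 others. Tek fell on PTU/LID in KO (-0.87 ± 0.27, adjusted p = 0.0466), where Chow_NCoRKO_27ac_190 was the high library: without it the value was -0.52 (adjusted p = 0.344). The value for the diet in WT was -0.59 ± 0.27 (adjusted p = 0.177), and averaged over genotypes Tek fell by 0.73 ± 0.19 (adjusted p = 0.00934).

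Of the 2 Tek regions, the more distant one passed and the one inside the gene did not, and the difference between them was not tested. The distant region (chr4:94725312-94725734) lies 13.8 kb before the start, within the lncRNA Gm40205, and had 2.81, 1.93 and 1.60 CPM in KO on PTU/LID, against 2.90, 3.16 and 8.10 CPM in KO on chow (-1.24 ± 0.39, adjusted p = 0.0464). The values without Chow_NCoRKO_27ac_190 were -0.57 and adjusted p = 0.543. The region inside the gene, 0.478 kb from the start, averaged 2.55 ± 0.890 CPM in KO on PTU/LID and 3.94 ± 0.326 CPM in KO on chow, with a difference of -0.56 ± 0.33 (adjusted p = 0.375).

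Flt1 (chr5:147561604-147726438) and Kdr (chr5:75932827-75979072) encode receptors for vascular endothelial growth factor. Flt1 had 7.33, 3.28 and 7.94 CPM in KO on PTU/LID, 7.48, 8.56 and 6.24 CPM in KO on chow, 12.0, 3.52 and 5.45 CPM in WT on PTU/LID and 10.3, 11.4 and 6.87 CPM in WT on chow. The groups overlapped, and none of its comparisons passed. Its stronger region (chr5:147758386-147758704) is intergenic, 32.1 kb before the gene. Around Kdr, the nearest regions lay 55.7 kb below the lower end and 57.3 kb above the upper end of the gene, outside the distance used here, so Kdr has no value.

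Among the genes of endocytosis and scavenging, Ehd3 (chr17:73804841-73832093), which encodes an ATPase of endocytic recycling enriched in sinusoidal endothelium, differed most. It had 176, 129.6 and 148 CPM in KO on PTU/LID and 151, 153 and 147 CPM in KO on chow. WT livers had 209, 174 and 155.4 CPM on PTU/LID and 277, 221 and 225 CPM on chow. Every WT chow library was above all others, and the KO groups had almost the same mean (151 ± 23.1 and 150.5 ± 3.30 CPM). Ehd3 was lower in KO than in WT on chow (-0.68 ± 0.13, adjusted p = 0.00337) and fell in WT on PTU/LID (-0.43 ± 0.13, adjusted p = 0.0370). The diet difference in KO was -0.00 ± 0.13 (adjusted p = 0.999), and KO against WT on PTU/LID gave -0.25 ± 0.13 (adjusted p = 0.300).

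The Ehd3 regions ran from 18.8 kb before the start to 48.8 kb after it, past the far end of the gene. On chow, 21 of the 22 had values lower in KO than in WT, and averaged over diets all 22 did. Among all regions these shares were 50.5% and 52%. On chow, 3 regions passed: chr17:73808301-73809202 (-0.95 ± 0.26, adjusted p = 0.0407) and chr17:73812804-73813056 (-1.20 ± 0.33, adjusted p = 0.0430) inside the gene, and chr17:73846300-73846596 (-1.34 ± 0.35, adjusted p = 0.0327) 14.4 kb beyond it. The last had 1.63, 2.42 and 2.75 CPM in KO on chow, against 6.94, 6.33 and 3.87 CPM in WT on chow. Averaged over diets, chr17:73812804-73813056 and 3 regions beyond the gene were lower in KO (chr17:73836603-73836969, -0.72 ± 0.21; chr17:73841777-73842749, -0.52 ± 0.16; chr17:73844215-73845671, -0.45 ± 0.14; adjusted p = 0.0195 to 0.0394 over the 4). The regions beyond the gene have Xdh as the next protein-coding gene, between 30.3 and 47.1 kb away.

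Clec4g (chr8:3707066-3720695), which encodes a C-type lectin of sinusoidal endothelium, had 75.0, 50.9 and 70.0 CPM in KO on PTU/LID, 64.5, 85.2 and 56.4 CPM in KO on chow, 90.0, 55.9 and 66.98 CPM in WT on PTU/LID and 95.0, 89.8 and 96.8 CPM in WT on chow. The WT chow libraries were high, and only Ptulid_WT_27ac_135 reached them. The values for KO against WT on chow (-0.46 ± 0.17, adjusted p = 0.139) and for the diet in WT (-0.42 ± 0.18, adjusted p = 0.154) did not pass. All 8 Clec4g regions had diet values below 0 in WT, between -1.32 and -0.12 (52.8% of all regions were below 0). One, chr8:3711945-3712577, was lower in KO averaged over diets (-0.67 ± 0.19, adjusted p = 0.0238). The strongest, chr8:3716890-3717655, averaged 16.02 ± 5.97 CPM in KO and 13.7 ± 2.63 CPM in WT on PTU/LID, against 13.7 ± 2.98 and 18.5 ± 2.77 CPM on chow.

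Stab1 (chr14:31139017-31168651), a scavenger receptor, had 11.1, 9.05 and 8.91 CPM in KO on PTU/LID, 12.1, 12.7 and 10.3 CPM in KO on chow, 12.4, 11.5 and 10.5 CPM in WT on PTU/LID and 12.7, 12.5 and 14.4 CPM in WT on chow. No comparison passed, and its largest gap among the 4 pairwise comparisons was the diet difference in KO (-0.29 ± 0.21, adjusted p = 0.495). Both of its regions lie within 0.861 kb of the start, and the nearer one (chr14:31168185-31168567) was the stronger.

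Stab2 (chr10:86841194-87008038), which encodes a scavenger receptor that clears hyaluronan, was assigned regions that moved in opposite directions. The gene-level sum was 208, 249 and 235 CPM in KO on PTU/LID, 252, 198 and 221 CPM in KO on chow, 205, 252 and 269 CPM in WT on PTU/LID and 212, 203 and 252 CPM in WT on chow. The groups overlapped throughout, and the diet differences were 0.05 ± 0.12 in KO and 0.13 ± 0.12 in WT (adjusted p = 0.886 and 0.584). Summed over the regions inside the gene alone, the diet difference in KO was -0.33 (adjusted p = 0.139), which has the opposite sign.

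The regions that rose lie before the gene. Their next protein-coding gene, 1700113H08Rik, lies 27.3 kb from the first and 25.8 kb from the second, little farther than Stab2. Which gene these regions act on was not tested. The first (chr10:87030518-87031066), 22.8 kb before the gene and within the lncRNA Gm16271, had 12.8, 11.04 and 12.8 CPM in KO on PTU/LID and 3.27, 2.42 and 3.06 CPM in KO on chow. It had 7.17, 9.69 and 10.7 CPM in WT on PTU/LID and 2.98, 4.43 and 3.87 CPM in WT on chow. No PTU/LID library overlapped a chow library. It rose on PTU/LID in KO (2.05 ± 0.28, adjusted p = 2.47e-06) and in WT (1.34 ± 0.30, adjusted p = 0.00721), and the difference between these effects did not pass (0.71 ± 0.42, adjusted p = 0.637).

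The second (chr10:87031737-87032827), 24.2 kb before the gene, had 34.8, 38.0 and 62.2 CPM in KO on PTU/LID and 7.80, 10.05 and 9.63 CPM in KO on chow. It had 9.26, 36.4 and 39.0 CPM in WT on PTU/LID and 9.42, 13.6 and 16.3 CPM in WT on chow. The low WT library was Ptulid_WT_27ac_135, which was as low as the chow libraries. The region rose in KO (2.30 ± 0.44, adjusted p = 0.00991) and had a value of 1.17 ± 0.45 in WT (adjusted p = 0.197). Without Ptulid_WT_27ac_135 the WT value was 1.56 ± 0.24 (adjusted p = 1.4e-05). Among libraries of 2% chrM or less, where Chow_WT_27ac_106 is the only WT chow library, it was 2.02, and among those over 2%, where this is the only WT PTU/LID library, it was -0.69.

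This rise was not limited to the regions assigned to Stab2. The next 3 regions, assigned by the rule to 1700113H08Rik and looked at after the values were seen, also rose on PTU/LID in both genotypes. They are chr10:87033046-87033701 (1.82 ± 0.33 in KO and 1.52 ± 0.35 in WT), chr10:87050800-87051486 (2.11 ± 0.34 and 1.33 ± 0.34) and chr10:87051959-87052821 (1.66 ± 0.22 and 1.22 ± 0.23). Their adjusted p ran from 2.26e-06 to 0.000234 in KO and from 0.00132 to 0.0242 in WT. The last had 41.2, 41.4 and 44.6 CPM in KO on PTU/LID, against 9.98, 12.1 and 17.9 CPM in KO on chow, and it had 21.2, 35.3 and 49.1 CPM in WT on PTU/LID, against 15.0, 16.2 and 14.6 CPM in WT on chow.

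None of the 9 regions inside Stab2 passed for the diet in either genotype. On PTU/LID, 5 of the 9 had values above 0 in WT (-0.61 to 0.84) and 3 of the 9 in KO (-0.68 to 0.47). The highest WT value was at chr10:86872281-86872701, which had 9.86, 12.1 and 16.6 CPM in WT on PTU/LID, against 5.95, 6.65 and 9.39 CPM in WT on chow, with no overlap (0.84 ± 0.29, adjusted p = 0.0925). It had 7.16, 8.70 and 6.12 CPM in KO on PTU/LID, against 12.0, 6.14 and 6.42 CPM in KO on chow. The region next to the start (chr10:87007425-87007915) had 6.65, 8.14 and 5.54 CPM in KO on PTU/LID, 5.81, 4.84 and 8.56 CPM in KO on chow, 6.87, 8.61 and 7.60 CPM in WT on PTU/LID and 11.2, 14.3 and 10.2 CPM in WT on chow. As at Pecam1 and Ehd3, the 3 WT chow libraries were above the other 9, but neither the diet difference in WT (-0.61 ± 0.27, adjusted p = 0.215) nor KO against WT on chow (-0.87 ± 0.27, adjusted p = 0.0726) passed. The strongest region (chr10:86880044-86882145), 127 kb into the gene, averaged 56.6 ± 8.29 CPM in KO and 67.1 ± 0.348 CPM in WT on PTU/LID, against 79.9 ± 10.7 and 70.7 ± 9.29 CPM on chow. The region nearest the far end of the gene (chr10:86845147-86845869) fell on PTU/LID averaged over genotypes (-0.59 ± 0.16, adjusted p = 0.0134).

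**Figure D2:**
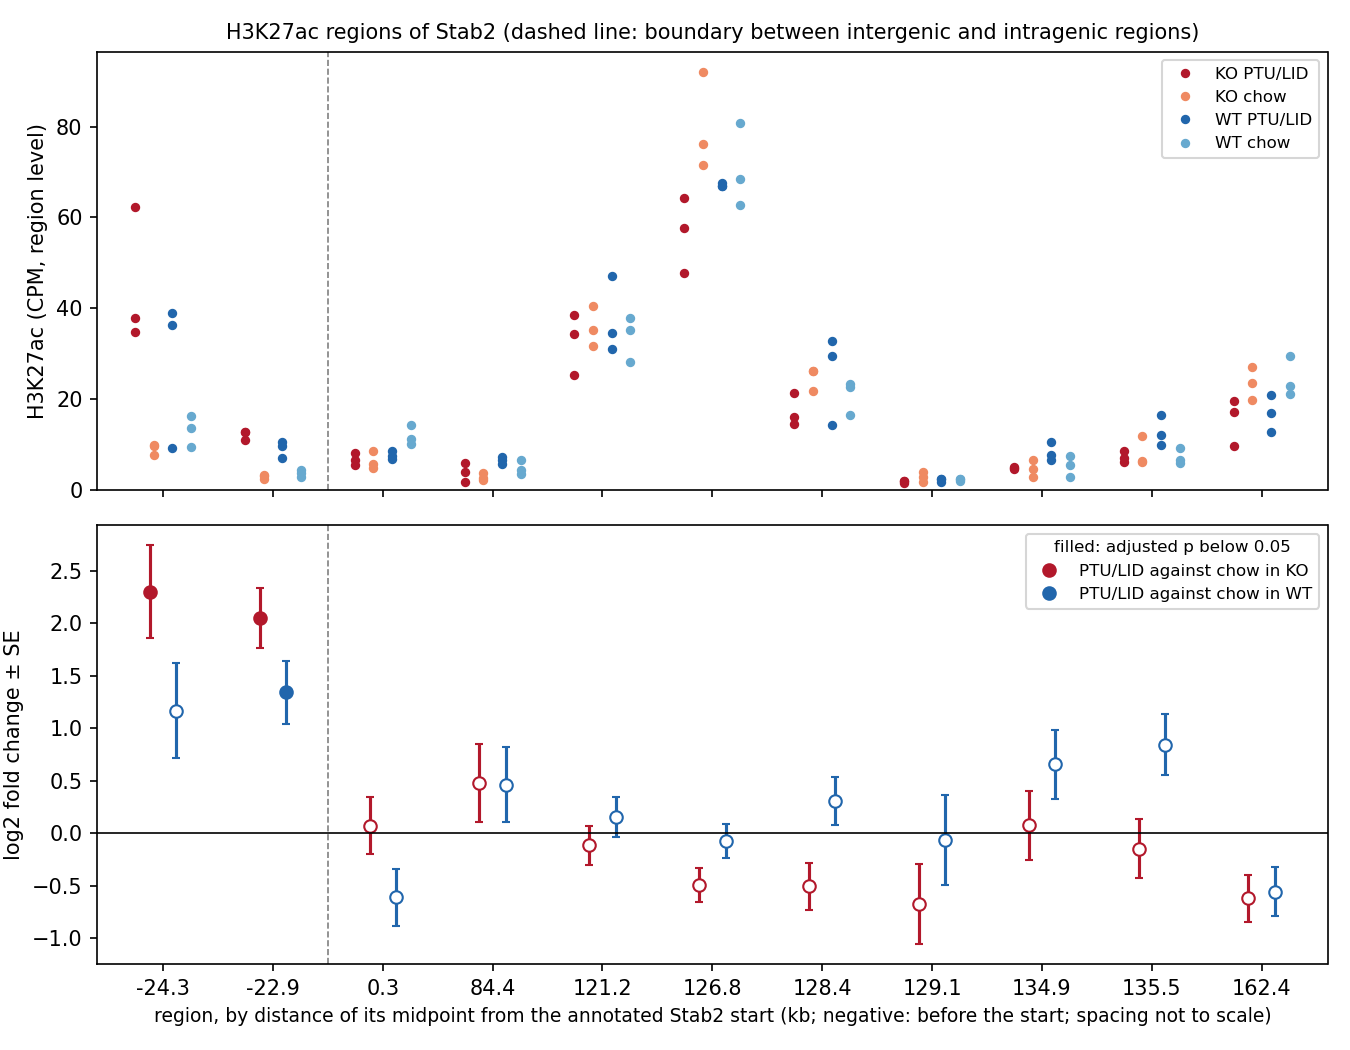
H3K27ac at the 11 regions of Stab2, ordered along the x axis by distance from the start (kb, spacing not to scale). The upper panel shows CPM in each library by group and the lower panel the log2 fold change of PTU/LID against chow with its SE in KO and WT, filled where the adjusted p is below 0.05. The 2 intergenic regions left of the dashed line have log2 fold changes between 1.17 and 2.30, while the 9 regions inside the gene lie between -0.68 and 0.84 and none is filled.

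Lyve1 (chr7:110850607-110862953), the hyaluronan receptor of lymphatic and sinusoidal endothelium, had 88.8, 98.4 and 82.8 CPM in KO on PTU/LID, 91.0, 92.9 and 81.8 CPM in KO on chow, 132, 93.8 and 83.1 CPM in WT on PTU/LID and 75.8, 115 and 91.2 CPM in WT on chow. The high WT PTU/LID library was again Ptulid_WT_27ac_135. No comparison passed, and the largest gap among the 4 pairwise comparisons was KO against WT on PTU/LID (-0.18 ± 0.16, adjusted p = 0.578). The strongest region was chr7:110854611-110855975 inside the gene. Its 2 intergenic regions lie 1.57 and 2.36 kb from Lyve1 and 4.59 and 3.79 kb from Rnf141.

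Counted over the genes, PTU/LID against chow in WT called 3 of 9, all lower (Pecam1, Ehd3 and Cdh5). The same test called 7.81% of all genes, and 3.99% as lower. The median log2 fold change was -0.43 over the 9 genes and -0.02 over all genes, with 7 of the 9 below 0 (52.6% of all genes). Over regions, 2 of 66 passed, 1 higher and 1 lower, against 3.7% of all regions. The region counts were thus near the background, and the gene-level counts rested on sums.

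In KO, PTU/LID against chow called 1 of 9 genes, Tek, against 7.63% of all genes and 3.25% as lower, so this count was near the background. The median was -0.19, against -0.01 over all genes, and 7 of 9 values were below 0 (6 with scaling by library totals or DESeq2 size factors, 5 with the chrM share as covariate and 9 with loess offsets). Among all genes, 51% had values below 0. Of the 66 regions, 3 passed, both intergenic Stab2 regions as higher and the distant Tek region as lower, against 6.21% of all regions.

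On chow, 2 of 9 genes passed for KO against WT, Pecam1 and Ehd3, both lower, against 4.1% of all genes called and 1.56% called as lower. Values were below 0 for 8 of 9 (50.8% of all genes), with a median of -0.39, against -0.01. Of the regions, 3 of 66 passed, all at Ehd3 and lower, against 2.43% of all regions and 0.823% called as lower, and 56 of 66 had values below 0 (50.5% of all regions). Over all genes 291 were higher and 179 lower in KO, and with scaling by library totals only 161 and 521. That scaling moved the median of all genes to -0.12 and that of these 9 to -0.50.

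Between KO and WT on PTU/LID, edgeR called 0 of 9 genes and 0 of 66 regions, against 6.67% of all genes and 3.86% of all regions. At an unadjusted p under 0.05 it had 1 gene and 8 regions, and DESeq2, which gave no adjusted p for 29 of the 66 regions, called 0 of the genes and of the other regions, with 1 gene and 5 regions at that unadjusted p. All 9 values were below 0 (8 with loess offsets), as were 52.9% of all genes, with a median of -0.18, against -0.02 over all genes. Calls over all genes here were mostly higher in KO, 612 against 152 lower, and the split was 349 to 382 when scaled by library totals only and 408 to 178 with loess offsets.

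The difference between the diet effects in KO and WT (the interaction) was called for 0 of 9 genes and 0 of 66 regions by edgeR, against 0.419% of all genes and 0.23% of all regions. The unadjusted p was under 0.05 for 1 gene, Ehd3 (0.43 ± 0.18, adjusted p = 0.398), and 8 regions, and DESeq2, with no adjusted p for 1 gene and 29 regions, called 0 of the others, with 1 gene and 8 regions at that unadjusted p. So the diet difference was not shown to differ between genotypes, although Pecam1, Ehd3 and Cdh5 passed in WT alone and Tek in KO alone.

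Averaged over genotypes, PTU/LID against chow called 3 of 9 genes as lower, Pecam1 (-0.36 ± 0.09, adjusted p = 0.00668), Tek and Cdh5 (-0.49 ± 0.16, adjusted p = 0.0428), against 16.1% of all genes and 7.7% as lower. It called 6 of 66 regions, 2 higher and 4 lower, against 11.3% of all regions. Averaged over diets, KO against WT called 2 of 9 genes as lower, Pecam1 (-0.40 ± 0.09, adjusted p = 0.00329) and Ehd3 (-0.47 ± 0.09, adjusted p = 0.00116), against 11.7% of all genes and 3.67% as lower. It called 6 of 66 regions, all lower, against 8.04% of all regions and 2.47% as lower, and 59 of 66 values were below 0 (52% of all regions). Over all genes 922 were higher and 421 lower in KO, and with library totals only 490 and 1361, with a median of -0.13. The comparisons share libraries, so their counts are not independent.

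**Figure D3:**
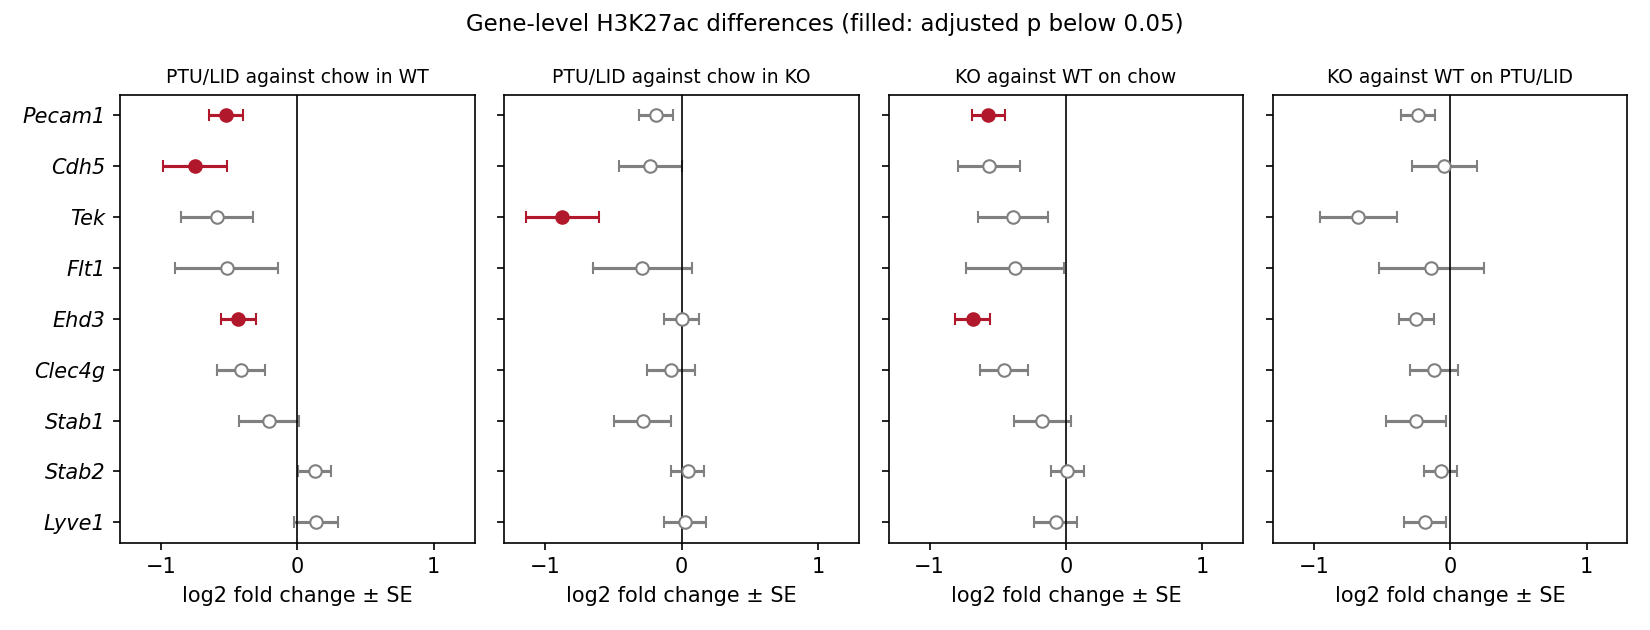
Log2 fold change with its SE (x axis) for each of the 9 genes in the 4 pairwise comparisons, from edgeR over 3 libraries per group. Filled points have an adjusted p below 0.05. Filled points are Pecam1, Cdh5 and Ehd3 for the diet in WT, Tek for the diet in KO, Pecam1 and Ehd3 for KO against WT on chow, and none for KO against WT on PTU/LID.

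These calls depend on single libraries to different degrees. Pecam1 and Ehd3 in KO against WT averaged over diets passed without any 1 of the 12 libraries (adjusted p up to 0.0142 and 0.00605), and Ehd3 on chow without any 1 of 6 (up to 0.0374). Pecam1 on chow did not pass without Chow_NCoRKO_27ac_122, Chow_WT_27ac_106 or Chow_WT_27ac_99 (0.0503 to 0.0778). For the diet in WT, Pecam1 did not pass without Ptulid_WT_27ac_155, Ptulid_WT_27ac_280 or Chow_WT_27ac_106 (0.0510 to 0.0758). Ehd3 and Cdh5 passed there only when the library left out was Ptulid_WT_27ac_135 (0.0520 to 0.197 and 0.0781 to 0.178 without another). Tek in KO did not pass without any 1 of the 3 KO PTU/LID libraries or without Chow_NCoRKO_27ac_190 (0.0676 to 0.344), and Cdh5 averaged over genotypes was lost in 9 of 12 fits without 1 library. The rise at the first intergenic Stab2 region held without any 1 library in KO, but in WT not without Ptulid_WT_27ac_280 or Chow_WT_27ac_106 (0.0651 and 0.0662), and that at the second did not hold in KO without Chow_NCoRKO_27ac_122 (0.0566). The Pecam1 region passed for the diet in WT only without Ptulid_WT_27ac_135, and the 3 Ehd3 regions on chow were each lost in 5 of 6 such fits. Of the averaged comparisons, each region call other than those at the intergenic Stab2 regions was lost in 1 to 8 of 12 fits.

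Depth and chrM share moved with the level of these genes. The mean of their standardised log2 CPM had a Pearson r of -0.69 with the log2 total, 0.442 with the log2 chrM share and -0.7 with the share of counts in the strongest 10% of regions (33.4% to 39.0%), over 12 libraries that also differ by group. Chow_WT_27ac_106, with 5831372 counts and 0.821% on chrM, had a mean of 0.738, beside 0.862 and 0.923 in the shallower WT chow libraries. Ptulid_WT_27ac_135 had 0.585, beside -0.379 and -0.244 in its group. Within the libraries of 2% chrM or less, where Chow_WT_27ac_106 stood alone for WT on chow, the diet differences in WT were -0.68 for Pecam1 (adjusted p = 0.00354), -0.74 for Ehd3 (0.00101) and -0.92 for Cdh5 (0.0330) by edgeR. Within those over 2% they were -0.28 (0.484), -0.09 (0.840) and -0.52 (0.483), where Ptulid_WT_27ac_135 stood alone for WT on PTU/LID. Each of these fits takes the spread of the single library from the other groups, so neither side of the split compares 2 replicated groups. KO against WT on chow could be compared only among those over 2%, with -0.54 for Pecam1 (0.00202) and -0.57 for Ehd3 (0.000273). The part of depth in these differences was not tested.

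Across the 12 libraries, most of the genes varied together. Pearson's r of each with the mean of the other 8 was 0.904 for Pecam1, 0.856 for Ehd3, 0.823 for Clec4g, 0.799 for Stab1, 0.743 for Cdh5, 0.634 for Tek, 0.618 for Flt1, 0.115 for Lyve1 and -0.522 for Stab2. Over the 36 pairs the median r was 0.526, and after the group means were removed it was 0.269. Among the Stab2 regions, r with the other genes was -0.549 and -0.626 at the intergenic regions and ran from -0.353 to 0.567 at the 9 inside the gene, with 5 above 0 and 4 below. With the mean of the hepatocyte genes described below, r was 0.513 and 0.66 at the intergenic regions. Inside the gene that r ran from -0.646 to 0.396. These values share libraries and their depth, and they are descriptions.

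The 10 other genes whose log2 CPM was most like the mean of these 9 over 12 libraries were Frmd4a (r = 0.982), Bicd2 (0.972), C5ar2 (0.971), Art4 (0.965), Crim1 (0.959), Dse (0.955), Tnnt1 (0.954), Mgat4b, Tmem229b and Macf1 (0.953 each). For Frmd4a the log2 fold change was -0.51 for KO against WT on chow and -0.45 for the diet in WT.

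Other general endothelial genes had a summed level of 1745.5 to 1920.2 CPM in KO on PTU/LID, 1884.6 to 1918.4 in KO on chow, 1728.7 to 1991.8 in WT on PTU/LID and 2121.5 to 2283.9 CPM in WT on chow, so the WT chow libraries were above all others. Counts of each list are to be read against the shares of all genes called lower and higher. They were 3.99% and 3.82% for the diet in WT and 3.25% and 4.37% for the diet in KO. For KO against WT they were 1.56% and 2.54% on chow, and 1.33% and 5.34% on PTU/LID. In lists of 14 genes or fewer, 1 called gene is already above these shares. Of 31 general endothelial genes, 6 fell in WT livers on PTU/LID and 30 had values below 0, with a median of -0.36. By smallest adjusted p these were Erg (-0.64 ± 0.12, adjusted p = 0.00175), an ETS factor, Cd34 (-0.58 ± 0.12, 0.00477), a sialomucin of endothelium and progenitors, Ets1 (-0.53 ± 0.12, 0.00643), another ETS factor, and Calcrl (-0.66 ± 0.16, 0.0113), the adrenomedullin receptor. Erg had 62.6, 51.5 and 61.3 CPM in WT on PTU/LID, against 92.6, 94.8 and 85.9 CPM in WT on chow. The groups did not overlap. In KO livers on chow, 4 of 31 were lower than in WT, Klf2 (-0.52 ± 0.12, adjusted p = 0.0120), a factor induced by blood flow, Eng (-0.66 ± 0.17, 0.0319), a coreceptor of the TGF-beta family, Fli1 (-0.51 ± 0.14, 0.0425) and Erg (-0.40 ± 0.12, 0.0490), with a median of -0.41. Klf2 was lost in 2 of the 6 fits without 1 library and the other 3 genes in all 6. In KO, 1 of 31 passed for the diet, Tie1, a receptor related to Tek, which rose (0.70 ± 0.16, adjusted p = 0.00684; not without Ptulid_NCoRKO_27ac_239, Chow_NCoRKO_27ac_146 or Chow_NCoRKO_27ac_190, with 0.0552, 0.0501 and 0.0513), and the median was -0.11. For KO against WT on PTU/LID the median was -0.07, with 19 of 31 values below 0.

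Of 20 further sinusoidal endothelial genes, 3 fell and 1 rose in WT livers on PTU/LID, with a median of -0.28. The interleukin gene Il1a (-0.98 ± 0.17, adjusted p = 0.000849), the lectin gene Clec1b (-0.95 ± 0.17, 0.00108) and Bmp2 (-0.78 ± 0.20, 0.0177) fell, and Bmp6 rose (0.89 ± 0.27, 0.0460). The BMP ligands of sinusoidal endothelium, which drive hepcidin in hepatocytes, thus moved in opposite directions in WT livers. Bmp2 was not called for the diet in KO. Bmp6 had 12.3, 13.9 and 22.7 CPM in KO on PTU/LID, against 8.29, 7.31 and 5.06 CPM in KO on chow (1.27 ± 0.26, adjusted p = 0.00218), and 13.7, 14.1 and 16.4 CPM in WT on PTU/LID, against 8.52, 6.08 and 9.06 CPM in WT on chow. The diet groups did not overlap in either genotype, and the rise in WT was lost in 5 of 6 fits without 1 library. The fall of Bmp2 in WT was lost in 3 of 6, and those of Il1a and Clec1b in none. On chow, Clec1b (-0.62 ± 0.16, adjusted p = 0.0288) and Bmp2 (-0.68 ± 0.19, 0.0458) were lower in KO than in WT and the fatty acid transporter gene Cd36, which hepatocytes can also express, was higher (0.53 ± 0.12, 0.0158). Cd36 was also higher in KO on PTU/LID (0.52 ± 0.12, 0.0102). Of the 6 fits without 1 library, Clec1b, Bmp2 and Cd36 on chow were lost in 4, 6 and 4, and Cd36 on PTU/LID in 3.

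Of 14 genes of the VEGF and angiopoietin pathway, which supply or relay the signals of Flt1, Kdr and Tek, 3 fell and 1 rose in WT livers on PTU/LID. The called genes Ptprb and Tie1 are also in the general endothelial list, so the counts of these lists overlap. The coreceptor gene Nrp1 (-0.64 ± 0.13, adjusted p = 0.00385), the adaptor gene Nck1 (-0.53 ± 0.14, 0.0243) and the phosphatase gene Ptprb (-0.55 ± 0.15, 0.0269) fell. Vegfa, the main ligand, rose (0.49 ± 0.13, 0.0261). Of the 6 fits without 1 library, Vegfa was lost in 4, Nck1 and Ptprb in 3 each, and Nrp1 in none. In KO on PTU/LID the ligand genes Vegfb (1.04 ± 0.23, adjusted p = 0.00476) and Vegfa (0.46 ± 0.13, 0.0346) and the receptor gene Tie1 rose, while Angpt1 (-1.22 ± 0.19, 0.000162), a ligand of Tek, and Nrp1 (-0.73 ± 0.13, 0.000686) fell. In KO, Vegfa was lost in 5 of the 6 fits without 1 library and Tie1 in 3, and Vegfb, Angpt1 and Nrp1 in none. With the regions within 10 kb alone, Angpt1 had -0.20 (adjusted p = 0.727). Vegfa had 537, 648 and 674 CPM in KO on PTU/LID and 403, 481 and 472 CPM in KO on chow. WT livers had 331, 484 and 501 CPM on PTU/LID and 299, 346 and 291 CPM on chow, so the KO PTU/LID libraries were the highest of all. Vegfa was higher in KO than in WT on chow (0.54 ± 0.13, adjusted p = 0.0256) and on PTU/LID (0.50 ± 0.13, 0.0243), lost in 4 and in 3 of the 6 fits without 1 library.

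Markers of other liver cells moved in part with the endothelial genes. Of 17 Kupffer cell and macrophage markers, 8 had a region, and the defining markers Clec4f, Adgre1, Marco, Vsig4 and Cd5l had none. The summed level of the 8 ran from 400.4 to 441 CPM in KO on PTU/LID, 516 to 595 in KO on chow, 383 to 442 in WT on PTU/LID and 516 to 596 CPM in WT on chow. Id3 alone made up most of this sum, with means of 270, 402, 247 and 329 CPM in the same order. The sum therefore mainly describes Id3. On PTU/LID, 2 of 8 fell in WT, Spi1 (-0.93 ± 0.19, adjusted p = 0.00333) and Id3 (-0.42 ± 0.10, 0.0152), with a median of -0.80. Id3 also fell in KO (-0.57 ± 0.10, 0.000744; median -0.08), and in KO on chow Spi1 was lower than in WT (-0.71 ± 0.18, 0.0255; median -0.65). Of 9 stellate cell genes, 3 were lower in KO on chow, Hgf (-0.57 ± 0.14, 0.0243), Hand2 (-0.80 ± 0.20, 0.0271) and Col3a1 (-1.23 ± 0.32, 0.0279). The stellate median for KO against WT was -0.51 on chow and -0.43 on PTU/LID, and for the diet in WT it was -0.13. The stellate sum ran from 196 to 227 CPM in KO on PTU/LID, 197 to 224 in KO on chow, 232.2 to 238.97 in WT on PTU/LID and 229.9 to 257 CPM in WT on chow.

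Hepatocyte genes had medians above 0 in the 4 pairwise comparisons. Of 24, 4 rose in WT on PTU/LID, among them Ttr (0.41 ± 0.09, adjusted p = 0.00800), Cebpa (0.57 ± 0.14, 0.0169) and Apoa2 (0.38 ± 0.11, 0.0345), with a median of 0.21, and 1 rose in KO on chow, Foxa2 (0.43 ± 0.09, 0.0105; median 0.19). In KO on PTU/LID, 2 rose against chow, Ttr (0.47 ± 0.09, 0.00146) and Apoa2 (0.40 ± 0.11, 0.0209). The rise of Ttr held without any 1 library in both genotypes. Of the 6 fits without 1 library, Apoa2 was lost in 5 in WT and 3 in KO, Cebpa in WT in 4 and Foxa2 on chow in 3. Between KO and WT on PTU/LID, Tdo2, which encodes a tryptophan dioxygenase, was lower in KO (-0.51 ± 0.13, 0.0170) and the cytochrome P450 gene Cyp2f2 was higher (0.42 ± 0.12, 0.0364), lost in 3 and in 4 of the 6 fits without 1 library. Each was 1 of 24 genes, against 1.33% of all genes called lower and 5.34% called higher. Of 2 lymphocyte genes with a region, Cd4 fell on PTU/LID in both genotypes (-1.03 ± 0.16 in KO and -1.03 ± 0.17 in WT, adjusted p = 0.00015 and 0.000699), while on chow Cd4 was higher and Ptprc lower in KO than in WT (0.56 ± 0.16 and -0.69 ± 0.19, 0.0477 and 0.0414). Of 3 cholangiocyte genes, Sox9 rose in WT on PTU/LID (0.61 ± 0.18, 0.0361). The part of other cell types in the endothelial differences was not tested. Over all these lists, the calls that held without any 1 library were 9 of 21 for the diet in WT, 7 of 10 for the diet in KO, 0 of 15 for KO against WT on chow and 0 of 4 for KO against WT on PTU/LID.

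**Figure D4:**
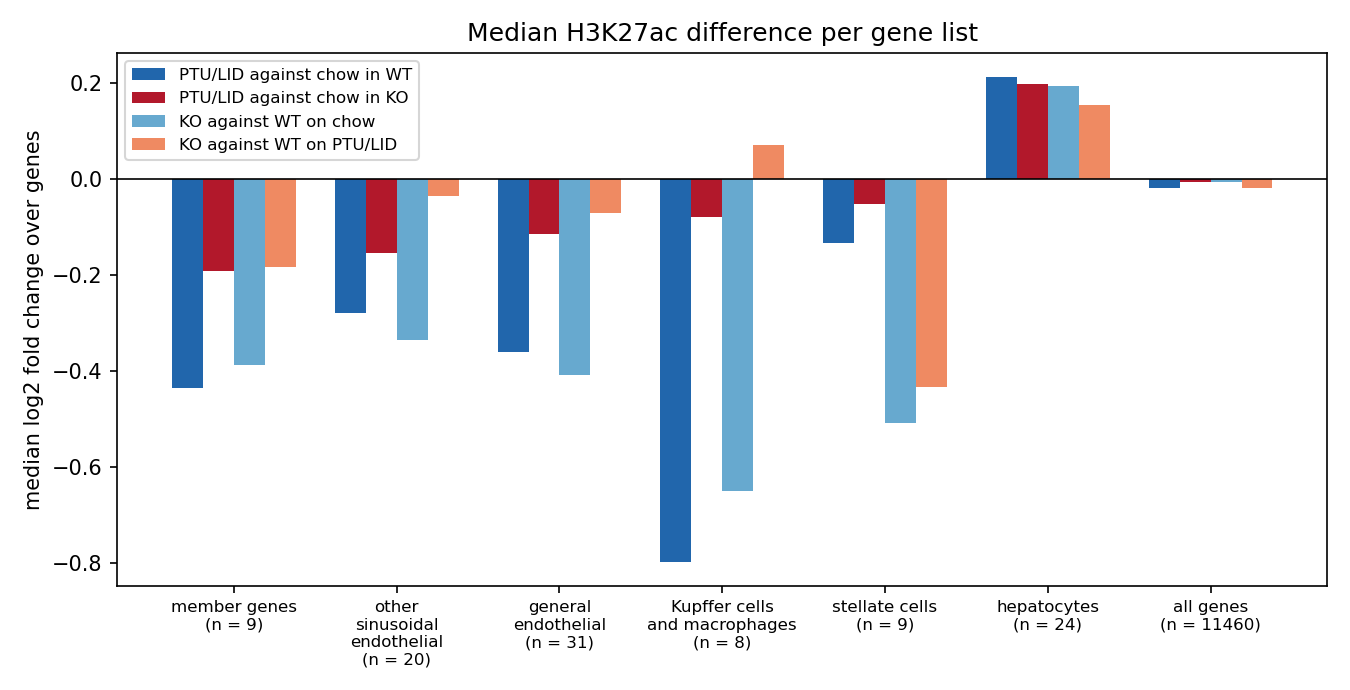
Median log2 fold change over the genes of each list (y axis; bars start at 0) in the 4 pairwise comparisons, beside all 11460 genes. Bars carry no error. The 3 endothelial lists lie below 0 in every comparison, lowest for the diet in WT (-0.43, -0.28 and -0.36) or KO against WT on chow (-0.39, -0.34 and -0.41), and hepatocyte genes lie above 0.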

How the data were processed

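H3K27ac chromatin immunoprecipitation libraries of mouse liver (12 of the 16 labelled; the 4 whole-cell input libraries were not analysed) were taken as the table of raw read counts per region that the authors deposited. The tools were MACS2 2.1.1, bedtools 2.26.0, bcl2fastq 2.17.1.14, Picard 2.8.1 and Bowtie2 2.2.1, with mm10 as genome build, per the submitters' processing notes. How regions were merged across libraries is not given in the sources used here. Regions were assigned to RefSeq GRCm38.p6 genes by the rule in the report (49101 of 52645), and counts were summed per gene.

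Genes and regions were fitted separately with edgeR 4.0.16 (R 4.3.3, limma 3.58.1). Features passed filterByExpr at a minimum count of 10, libraries were scaled by TMM, and a robust quasi-likelihood model with 4 group means over all 12 libraries gave 7 comparisons. CPM values are counts per library total scaled by TMM. Every p was adjusted by Benjamini-Hochberg over all features of its fit, with a threshold of 0.05. The SE is the log2 fold change divided by the square root of F. DESeq2 1.42.0 was an alternative. On simulated counts with 200 changed features the fits were tested and recovered 197 genes and 183 regions. The share recovered at the size and spread of the gene differences reported here was not tested. Other alternatives were DESeq2 size factors, library totals, no low-count filter, the compared groups alone, the chrM share as covariate or as a split at 2%, other assignment distances, each library left out, and loess offsets, which were added after the data were seen.

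Counts of 15 or more per gene and library limit the precision at Flt1 and Tek most, and no pair of libraries agreed within sampling noise (chi-square over degrees of freedom 1.98 to 7.87). The genes and lists were chosen with earlier results of these data known. Named were all genes with a region, the strongest region of each and every region that passed, up to 4 genes by smallest adjusted p per list and comparison described, and the 10 genes most like the mean. Vegfa for the diet in KO, Fli1 for the diet in WT, the region next to the Stab2 start, the region with the highest WT diet value inside Stab2, the other Tek region and the 3 regions of 1700113H08Rik were chosen after their values were seen. The values of 1 gene that this rule names are not reported here. Sequences are RefSeq promoter windows.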

Additional observations from a re-analysis of the deposited data

How the results depend on the processing

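Of 226 alternative values for the 11 calls on the 9 genes, 161 kept the call, 65 lost it and none changed sign, and no call held in every alternative. Of 362 values for the 20 region calls, 247 kept the call and 115 lost it. Of 905 values for the 50 list calls, 657 kept the call, 247 lost it and 1 changed sign, that of Fli1 for the diet in WT, with 0.091 when only regions within 2.5 kb of a gene end were used. The cause of these shifts was not tested. Some settings left fewer libraries or regions, and calls were also lost in settings that kept all of them. For the counts and shares below, only settings with the larger shifts are listed, and unlisted settings can differ by less. The diet in WT had 2 genes called with DESeq2 size factors, library totals, compared groups alone, the chrM covariate or regions within 10 kb.

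The number of the 9 genes called for the diet in WT (3) was 0 among libraries over 2% chrM, 1 with regions inside genes only and 1 within 2.5 kb of a gene end. For the diet in KO (1) it was 0 with library totals, the compared groups alone, the chrM covariate, libraries over 2% chrM, regions inside genes, regions within 10 kb, within 2.5 kb of a gene end, and loess offsets. For KO against WT on chow (2) it was 4 with the compared groups alone and 0 within 2.5 kb. Averaged over genotypes (3) it was 0 with the covariate, over 2% chrM and within 2.5 kb, and averaged over diets (2) it was 4 with library totals and 0 within 2.5 kb.

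The number of the 66 regions called for the diet in WT (2) was 1 with DESeq2 size factors, library totals or the compared groups alone, 0 over 2% chrM and 10 at 2% or less. For the diet in KO (3) it was 1 with the covariate and 5 over 2% chrM. For KO against WT on chow (3) it was 16 with library totals, 1 with DESeq2, 10 with the compared groups alone, 6 with the covariate, 1 over 2% chrM and 1 with loess offsets. On PTU/LID (0) it was 1 over 2% chrM, which sets 1 KO library against 1 WT library, and 2 at 2% or less. The interaction (0) had 1 over 2% chrM, resting on the same 2 PTU/LID libraries. Every diet comparison over 2% chrM has 1 PTU/LID library a genotype, and that in WT at 2% or less has 1 chow library, each assumed to vary like the other groups. Averaged over genotypes (6) it was 3 with the covariate and 1 over 2% chrM, and averaged over diets (6) it was 22 with library totals, 12 with the covariate and 1 over 2% chrM.

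Over all genes, the share called for the diet in WT (7.81%) was 1.95% over 2% chrM and 4.3% within 2.5 kb, and for the diet in KO (7.63%) it was 3.64% with the covariate and 4.06% within 2.5 kb. For KO against WT on chow (4.1%) it was 10.5% with the compared groups alone, 9.58% with the covariate, 10.1% over 2% chrM and 2.62% within 2.5 kb. On PTU/LID (6.67%) it was 3.24% with the compared groups alone, 2.19% over 2% chrM, 11.2% at 2% or less and 3.93% within 2.5 kb. The interaction (0.419%) had 0.681% with library totals, 0.925% with DESeq2, 1.01% with the covariate, 1.02% over 2% chrM, 0.192% within 2.5 kb and 0.672% with loess offsets. Averaged over genotypes (16.1%) it was 6.84% with the covariate, 6.36% over 2% chrM and 9.64% within 2.5 kb, and averaged over diets (11.7%) it was 7.35% over 2% chrM.

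With each library left out in turn, the share of all genes called and the numbers of the 9 genes and of the 66 regions called ranged as follows. For the diet in WT they were 2.93% to 14.0%, 0 to 4 and 0 to 7, and for the diet in KO 4.1% to 9.85%, 0 to 1 and 2 to 4. For KO against WT they were 0.985% to 2.21%, 1 to 2 and 0 to 3 on chow, and 3.17% to 8.91%, 0 to 0 and 0 to 2 on PTU/LID. The interaction had 0.131% to 0.785%, 0 to 0 and 0 to 0. Averaged over genotypes they were 11.6% to 21.8%, 2 to 6 and 4 to 10, and averaged over diets 7.24% to 18.1%, 2 to 3 and 1 to 12. No paired analysis was possible because each H3K27ac library carries its own number and none is shared between compared groups. The 66 regions had a median of 30.8 counts, against 45.2 for all regions.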
